A study of Mus musculus with 20 samples.

Results

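The feeding hormone and peptide receptors are the 10 genes Lepr, Ghsr, Insr, Igf1r, Glp1r, Mc3r, Mc4r, Npy1r, Npy2r and Npy5r, chosen by name from the 22048 genes counted. They were measured by RNA-seq in the arcuate nucleus (ARC) of male C57BL6/J mice, to ask how glucocorticoid excess acts on this nucleus. The mice drank corticosterone (Cort, 75 µg/ml in 1% ethanol) or vehicle (1% ethanol). Their age is given as 10 weeks, and acclimatization and baseline weeks came before treatment. Mice in the 2 day groups were culled at the end of treatment. Those in the 4 week groups were fasted for 16 h at the end of treatment and refed for 24 h before the cull. Each of the 4 groups held 5 samples of whole ARC cut out by laser capture, 20 in all, with no genetic change in any group. The study set aside 2 vehicle samples and 1 Cort sample per dataset as outliers, and the values below rest on the other 3 vehicle and 4 Cort samples unless all 10 are named.

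The ARC lies beside a leaky stretch of blood-brain barrier, and its neurons read hormones of the fat, gut and pancreas. Leptin acts through Lepr and insulin through Insr to restrain Agrp/Npy neurons, which drive feeding, and to stimulate Pomc neurons, which suppress it, whereas the stomach hormone ghrelin stimulates Agrp/Npy neurons through Ghsr. Peptides of these neurons are in turn read by melanocortin receptors (Mc3r, Mc4r) and by neuropeptide Y receptors (Npy1r, Npy2r, Npy5r), of which Npy2r is known as an autoreceptor of Npy neurons. Glucocorticoids are known to raise food intake in rodents.

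The counts were made per gene, so the isoforms of a receptor were summed. This bears most on Lepr (ENSMUSG00000057722, GRCm38 chromosome 4, 101717404 to 101815352, plus strand), where the annotation holds 7 transcripts and where only the long form carries the intracellular tail that signals through STAT3. The study's qRT-PCR primers for Lepr and Ghsr are shown because they mark the transcript region that this assay read, 5′ to 3′:

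Lepr forward: gactgaatttccaaaagcctgaa
Lepr reverse: gctccagaagaagaggaccaa
Ghsr forward: agatcgcgcagatcagtcag
Ghsr reverse: gtattgatgctcgactttgtcca

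The Lepr pair was found in 1 of the 7 transcripts, Lepr-201, as a coding product of 87 bases that joins exons 18 and 19. That transcript has the longest coding sequence of the gene, 3486 bases against 2682 in Lepr-203 and 2676 in Lepr-202, so the primers read 1 isoform while the count covers all. The Ghsr pair gave a coding product of 211 bases within exon 3 of the only Ghsr transcript (chromosome 3, 27374708 to 27374918). Igf1r also had primers, but no Igf1r transcript held both. Genes for that assay were picked at P below 0.01 in the 2 day libraries themselves, so the presence of Ghsr, Igf1r and Lepr on its list is not independent evidence of their direction. The assay itself read RNA of some sequenced samples and of additional 2 day ARC samples of both treatments. For the genes it measured as a set, the study reports a clear correlation with RNA-seq. Its values for single receptors were not used here.

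RefSeq promoters (250 bases before a start, GRCm38.p6) were searched for 8 of the 10 receptors, 9 promoters in all with 2 for Lepr. Insr and Mc4r were outside this set, and statements on receptor promoters below cover these 9 only. The promoters of Ghsr (chr3:27371101-27371350, plus strand) and Lepr (chr4:101717157-101717406, plus strand) are shown because these receptors were the 2 that kept Cort and vehicle apart over all 10 samples of the 2 day dataset, and that of Npy5r (chr8:66688095-66688344, minus strand) because it alone held TGTTCT or its complement AGAACA, the core of the glucocorticoid response element, printed in capitals:

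Ghsr: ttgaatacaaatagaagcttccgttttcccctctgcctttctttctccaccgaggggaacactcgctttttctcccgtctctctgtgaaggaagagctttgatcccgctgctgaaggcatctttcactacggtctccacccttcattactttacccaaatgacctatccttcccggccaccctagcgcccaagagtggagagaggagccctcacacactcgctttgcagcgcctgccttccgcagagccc
Lepr: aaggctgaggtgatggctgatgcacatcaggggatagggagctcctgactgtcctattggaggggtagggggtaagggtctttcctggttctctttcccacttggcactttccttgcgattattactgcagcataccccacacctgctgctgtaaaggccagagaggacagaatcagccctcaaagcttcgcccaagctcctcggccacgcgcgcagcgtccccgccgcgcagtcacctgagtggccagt
Npy5r: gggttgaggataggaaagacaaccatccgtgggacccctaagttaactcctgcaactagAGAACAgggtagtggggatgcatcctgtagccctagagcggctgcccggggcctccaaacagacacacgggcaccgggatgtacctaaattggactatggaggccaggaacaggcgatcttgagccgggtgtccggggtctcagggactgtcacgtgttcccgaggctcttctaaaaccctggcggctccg

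In Npy5r the match began 191 bases before the start. Of all 32851 RefSeq promoters, 16.1% held TGTTCT on either strand. None of the 9 receptor promoters held the STAT element TTCNNNGAA (7.02% of all promoters), the FoxO element GTAAACA (3.17%) or the cyclic AMP response element TGACGTCA (1.55%), and no matches overlapped. Such matches describe letters in a short window and were not tested against the expression values.

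Libraries held 2487063 to 5748223 counts in the 2 day dataset and 1065776 to 5196364 in the 4 week dataset. Levels are given as CPM, each sample's counts scaled to a common library size with TMM over the 10 samples of a dataset, and 3 counts were worth 0.512 to 1.19 CPM after 2 days and 0.619 to 2.75 CPM after 4 weeks. The datasets were sectioned, captured and sequenced on different equipment, and fasting and refeeding came only with 4 weeks, so the length of treatment and these differences cannot be told apart. In tissue such as this, fewer cells of a type and less RNA per cell cannot be told apart either. No source ties a count column to a numbered animal, so samples carry the names of the count columns.

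Npy1r and Npy2r were the most abundant of the receptors and Mc4r the least, in both datasets. On the scale of CPM per kilobase of exon, which allows genes of different length to be set side by side, the median over the 7 samples after 2 days was 27.8 for Npy1r, 21.8 for Npy2r, 8.95 for Ghsr, 8.80 for Mc3r, 8.48 for Insr, 7.45 for Glp1r, 5.30 for Igf1r, 5.29 for Npy5r, 2.20 for Lepr and 0.426 for Mc4r. Npy2r exceeded Ghsr, and Npy5r exceeded Lepr, in all 7 samples. Places 3 to 8 were not distinct: Ghsr exceeded Mc3r in 4 of 7 samples, Insr exceeded Glp1r in 4 and Igf1r exceeded Npy5r in 3. After 4 weeks the medians ran from 35.7 for Npy1r and 33.9 for Npy2r through 18.4 for Ghsr to 3.25 for Lepr and 0.340 for Mc4r, and Npy1r exceeded Npy2r in 4 of 7 samples. By mean level per kilobase, Npy1r stood above 89.3% of the 16029 genes with any count after 2 days, Ghsr above 72.7%, Lepr above 42.2% and Mc4r above 25.8%. Lepr was thus a low gene in these libraries, read by 20 to 172 counts per sample after 2 days.

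**Figure D1:**
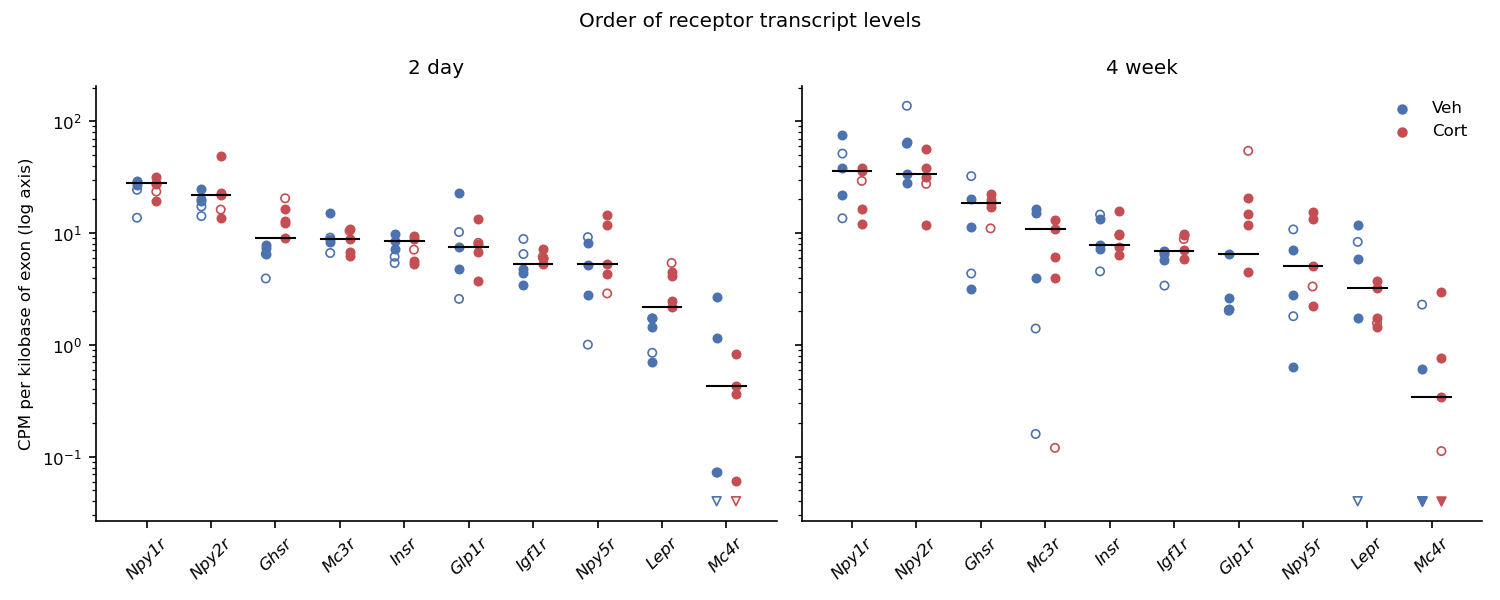
CPM per kilobase of exon (log axis) for each receptor, ordered by the median over the 7 samples kept (black bar), with vehicle samples in blue, Cort samples in red, samples set aside as open symbols and samples at 0 as triangles at the lower edge. Npy1r and Npy2r lead in both panels and Mc4r closes the order, while the receptors between Ghsr and Npy5r overlap.

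After 2 days of Cort, Lepr and Ghsr transcripts were higher than in vehicle, by 2.58-fold and 1.76-fold, and Igf1r was higher by 1.46-fold. In all 3 the lowest Cort sample lay above the highest vehicle sample, a separation found in 6.63% of the 12309 genes tested. None of the 10 receptors reached P below 0.01 (1.49% of all genes) or Padj below 0.1 (0.065%) with edgeR's quasi-likelihood test, and 3 had P below 0.05 (5.97%). With DESeq2 the same 3 receptors had P below 0.01 (1.9% of its genes), again with none at Padj below 0.1. The other 7 receptors had P above 0.05 and overlapped between treatments.

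Lepr, the leptin receptor, measured 4.98, 10.1 and 12.2 CPM in vehicle samples C02, C04 and C05. In Cort samples C01, C03, C06 and C10 it measured 29.4, 17.5, 15.5 and 31.4 CPM. Every Cort sample was above every vehicle sample, with C01 and C10 clearly highest. The means were 9.10 ± 3.72 CPM (SD, n = 3) and 23.5 ± 8.09 CPM (SD, n = 4), and the log2 fold change was 1.37 ± 0.48 (SE; edgeR Padj = 0.686). The samples set aside fell on the same sides, at 12.1 and 5.99 CPM in vehicle samples C07 and C09 and 38.1 CPM in Cort sample C08. Over all 10 samples the log2 fold change of Lepr was 1.54 ± 0.43 (edgeR Padj = 0.769).

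Ghsr (chromosome 3, 27371351 to 27378010, plus strand), the ghrelin receptor, measured 32.6, 34.5 and 28.7 CPM in vehicle samples C02, C04 and C05. Cort samples C01, C03, C06 and C10 held 72.4, 56.6, 39.7 and 54.5 CPM. The groups did not overlap, though Cort sample C06 lay close to the vehicle range. Means were 31.9 ± 2.97 CPM (SD, n = 3) and 55.8 ± 13.4 CPM (SD, n = 4), with a log2 fold change of 0.81 ± 0.30 (edgeR Padj = 0.69). Of the samples set aside, vehicle C07 and C09 held 29.0 and 17.4 CPM and Cort C08 held 90.7 CPM, again on the sides of their groups. With all 10 samples the difference widened to 1.15 ± 0.29 on the log2 scale (edgeR Padj = 0.611).

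Lepr and Ghsr were thus the 2 receptors of 9 tested that kept Cort and vehicle apart over all 10 samples, a separation seen in 0.801% of the 11983 genes of that fit, and the 2 with P below 0.01 there (1.11% of genes). Leaving out any 1 of the 10 samples kept P below 0.01 for both, with log2 fold changes of 1.38 to 1.68 for Lepr and 0.99 to 1.28 for Ghsr. Over the 7 samples P was above 0.05 for Lepr without vehicle C02 (log2 fold change 1.07) and for Ghsr without Cort C01 (0.67), and stayed below it without any other sample.

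Igf1r (chromosome 7, 67952827 to 68233668, plus strand), a receptor tyrosine kinase for insulin-like growth factor 1, measured 57.5, 73.7 and 79.7 CPM in vehicle and 100.2, 88.9, 100.2 and 120.1 CPM in Cort samples C01, C03, C06 and C10. The log2 fold change was 0.55 ± 0.22 (edgeR Padj = 0.754). The vehicle samples set aside, however, held 108.9 and 148.6 CPM, the latter above every Cort sample, and the difference over all 10 samples was 0.14 ± 0.23 (edgeR Padj = 0.981). The call for Igf1r therefore rested on which samples were kept.

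Its close relative Insr (chromosome 8, 3122061 to 3279617, minus strand), the insulin receptor, overlapped between treatments, at 98.8 to 135.1 CPM in vehicle and 73.2 to 129.7 CPM in Cort, with a log2 fold change of -0.21 ± 0.23 (edgeR Padj = 0.946). Within a sample, where library size cancels, Igf1r gave 0.425 to 0.807 counts per count of Insr in the 3 vehicle samples and 0.820 to 1.37 in the 4 Cort samples. The ranges met almost end to end, and with the vehicle samples set aside they overlapped, since vehicle reached 1.76. Lepr gave 0.0368 to 0.124 counts per count of Insr in vehicle and 0.212 to 0.242 in Cort, and over all 10 samples the vehicle maximum of 0.164 was still below the Cort minimum. These ratios were chosen after their values were seen and carry no test.

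Glp1r (chromosome 17, 30901817 to 30940791, plus strand), the receptor for glucagon-like peptide 1, measured 43.3, 27.8 and 132.6 CPM in vehicle and 21.6 to 78.0 CPM in Cort. Vehicle sample C05 alone was above the Cort range. The log2 fold change of -0.55 ± 0.44 (edgeR Padj = 0.926) turned to 0.39 without that sample.

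Of the melanocortin receptors, which couple to Gs and read Pomc-derived peptides and their antagonist Agrp, Mc3r (chromosome 2, 172248492 to 172251114, plus strand) measured 21.8 to 39.9 CPM in vehicle and 16.3 to 28.7 CPM in Cort after 2 days. The groups overlapped, with a log2 fold change of -0.39 ± 0.38 (edgeR Padj = 0.946). Mc4r was close to the counting limit, with 30, 15 and 1 counts in vehicle samples C02, C04 and C05 and 1, 3, 13 and 3 counts in Cort samples C01, C03, C06 and C10. It had 0 counts in 2 of the samples set aside, where up to 3 counts would go unseen, and its log2 fold change of -1.58 ± 1.13 (edgeR Padj = 0.922) cannot be told from 0. It did not pass the filter on low counts in the fit of all 10 samples.

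The Npy receptors, which couple to Gi, did not separate the treatments after 2 days. Npy1r (chromosome 8, 66697192 to 66706792, plus strand) measured 93.0 to 100 CPM in vehicle and 67.0 to 109.8 CPM in Cort, with a log2 fold change of -0.08 ± 0.21 (edgeR Padj = 0.974). Npy2r (chromosome 3, 82538383 to 82548084, minus strand) measured 65.9 to 83.0 CPM in vehicle and 77.8, 46.1, 73.8 and 165.9 CPM in Cort samples C01, C03, C06 and C10. Sample C10 carried its higher Cort mean: the log2 fold change of 0.33 ± 0.32 (edgeR Padj = 0.937) became -0.12 without it. Npy5r (chromosome 8, 66679965 to 66688128, minus strand), which lies 9063 bases from Npy1r on the opposite strand, measured 7.12 to 20.9 CPM in vehicle and 10.9 to 37.0 CPM in Cort, with a log2 fold change of 0.74 ± 0.51 (edgeR Padj = 0.915). The fold changes of these neighbours were 0.949 and 1.67, neither with P below 0.05, and the difference between them was not tested.

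**Figure D2:**
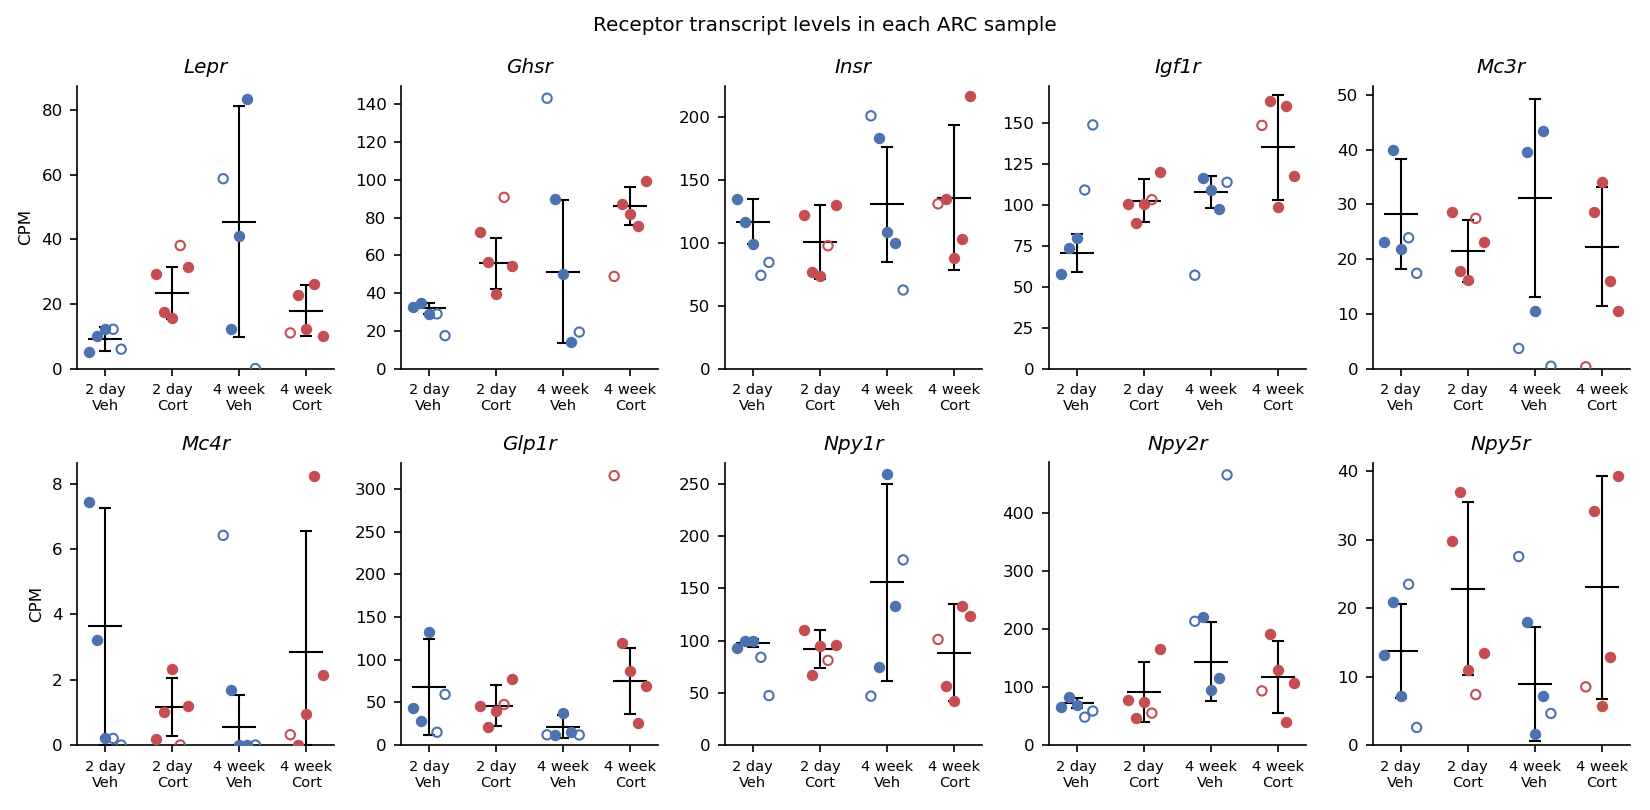
CPM of each receptor in each sample (points; vehicle blue, Cort red; filled, kept by the study; open, set aside), with the mean and SD of the kept samples as a black bar and whiskers, on axes that start at 0. Cort samples of Lepr and Ghsr sit above all vehicle samples after 2 days, and vehicle samples of Lepr range from 0 to 83.3 CPM after 4 weeks.

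After 4 weeks of Cort, Glp1r was 3.45-fold higher and Lepr was at 0.390 of its vehicle level, with a wide spread between samples. No receptor separated the groups (6.53% of 11211 genes did over 7 samples and 0.942% of 10398 genes over 10). None of the 9 receptors tested had P below 0.01 (1.03% of genes) or Padj below 0.1 (0.0446%) with edgeR, and 1, Glp1r, had P below 0.05 (4.91%). Glp1r also had P below 0.01 with DESeq2 (2.18% of its genes) and in the edgeR fit of all 10 samples (0.971%), with Padj above 0.1 in both.

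Glp1r measured 12.2, 37.4 and 15.2 CPM in vehicle samples C02, C03 and C04. Cort samples C07, C08, C09 and C10 held 119.4, 86.2, 26.3 and 68.9 CPM. Of the 4 Cort samples, 3 were above every vehicle sample, and C09 lay below vehicle C03. Means were 21.6 ± 13.8 CPM (SD, n = 3) and 75.2 ± 38.8 CPM (SD, n = 4), with a log2 fold change of 1.79 ± 0.69 (edgeR Padj = 0.99). In the samples set aside, vehicle C01 and C05 held 11.9 and 11.7 CPM and Cort C06 held 315.8 CPM. Over all 10 samples the log2 fold change was 2.78 ± 0.65 (edgeR Padj = 0.615). Without Cort C06 it was 2.07, and leaving out any of the 10 samples kept P below 0.01. Over the 7 samples P was above 0.05 without vehicle C02, vehicle C04 or Cort C07, with log2 fold changes of 1.52, 1.59 and 1.47.

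Lepr, by contrast, measured 12.2, 41.0 and 83.3 CPM in vehicle and 22.9, 12.1, 26.3 and 10.1 CPM in Cort samples C07, C08, C09 and C10. Vehicle samples C03 and C04 were above the whole Cort range and C02 was inside it. The log2 fold change was -1.36 ± 0.81 (edgeR Padj = 0.99), and it shrank to -0.58 without vehicle C04. Vehicle samples set aside spanned the extremes, with 58.8 CPM in C01 and 0 counts in C05, where 3 counts are the limit of what a count of 0 allows.

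Ghsr measured 90.0, 50.3 and 13.9 CPM in vehicle and 87.3, 81.7, 75.8 and 99.6 CPM in Cort. The Cort samples were close together and vehicle C02 lay among them, so the log2 fold change of 0.73 ± 0.58 (edgeR Padj = 0.99) was within the spread. It was 0.29 without vehicle C04 and 1.43 without vehicle C02. Insr and Igf1r also overlapped, with log2 fold changes of 0.05 ± 0.41 (edgeR Padj = 0.995) and 0.32 ± 0.37 (edgeR Padj = 0.99).

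Mc3r ranged from 10.5 to 43.4 CPM in vehicle and from 10.5 to 34.0 CPM in Cort, with a log2 fold change of -0.49 ± 0.82 (edgeR Padj = 0.99). It was nearly absent from the 3 samples set aside, which held 4, 1 and 1 counts. Mc4r had 5, 0 and 0 counts in vehicle and 0, 4, 16 and 7 counts in Cort samples C07, C08, C09 and C10, and did not pass the filter on low counts.

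Npy1r measured 75.1, 259.7 and 133.0 CPM in vehicle and 41.9 to 133.0 CPM in Cort after 4 weeks. Its log2 fold change of -0.83 ± 0.50 (edgeR Padj = 0.99) came mostly from vehicle C03 and was -0.23 without it. Npy2r overlapped, at 94.1 to 221.2 CPM in vehicle and 40.2 to 191.7 CPM in Cort (log2 fold change -0.30 ± 0.48, edgeR Padj = 0.99). Over all 10 samples Npy2r differed by -1.01 ± 0.45 (edgeR Padj = 0.991), with 465.0 CPM in vehicle C05, a sample set aside, as its highest value. Npy5r measured 1.61 to 17.9 CPM in vehicle and 5.72 to 39.4 CPM in Cort (log2 fold change 1.36 ± 1.11, edgeR Padj = 0.99).

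The Cort difference itself was compared between the datasets in 1 fit over the 14 samples kept. No receptor had P below 0.01 (1.35% of 12777 genes) or Padj below 0.1 (0.0157%), and 2 of the 10 had P below 0.05 (6.49%), both with Padj of 0.714. They were Lepr, whose log2 difference was lower after 4 weeks than after 2 days by -2.72 ± 0.96 (edgeR Padj = 0.714), and Glp1r, where it was higher by 2.34 ± 0.85 (edgeR Padj = 0.714). For Lepr the value was -1.94 without 4 week vehicle C04, and for Glp1r 1.41 without 2 day vehicle C05, with P above 0.05 in each case. Ghsr differed by -0.08 ± 0.65 (edgeR Padj = 0.998), so its higher Cort level after 2 days was not shown to differ from that after 4 weeks, nor to be alike, given the size of the error.

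**Figure D3:**
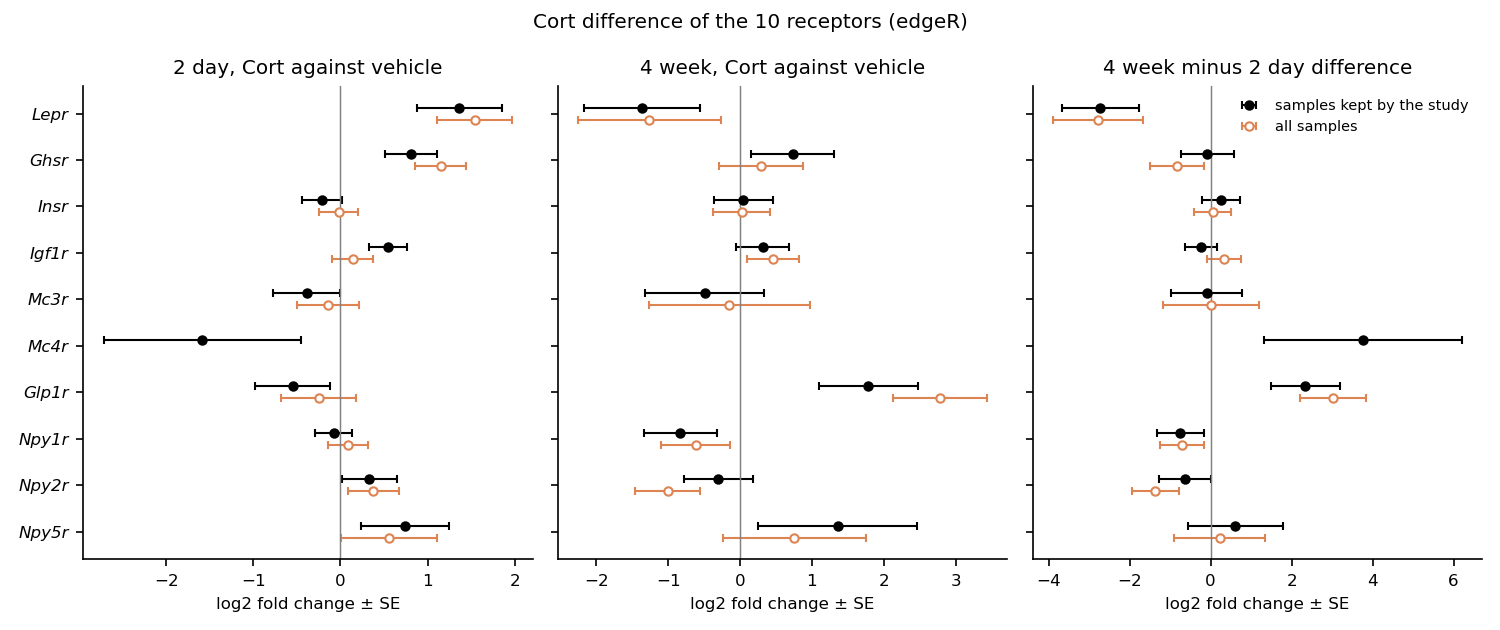
Log2 fold change (point) and SE (whisker) of each receptor after 2 days, after 4 weeks and as the 4 week minus 2 day difference, from edgeR on the samples kept (black) and on all samples (orange, open). After 2 days Lepr, Ghsr, Npy2r and Npy5r lie more than 1 SE to the right of 0 in both fits. Igf1r does so with the samples kept, while with all samples its whisker crosses 0. After 4 weeks Lepr crosses to the left while Glp1r moves right. Mc4r is drawn only where it passed the filter.

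As a group the receptors leaned neither way. Over the receptors tested the median log2 fold change was 0.13 after 2 days and 0.05 after 4 weeks, beside 0.02 and 0.04 over all genes. Higher and lower members were 5 and 5 after 2 days and 5 and 4 after 4 weeks. Median sizes regardless of sign were 0.55 and 0.73 for the receptors and 0.26 and 0.51 over all genes. With all 10 samples of each dataset they were 0.25 and 0.62 for the receptors and 0.24 and 0.47 over all genes.

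Other receptors of feeding signals were described by a list of 42 genes. Of the 31 tested after 2 days, Ghr, the growth hormone receptor, was higher with a log2 fold change of 0.86 ± 0.26 (edgeR Padj = 0.521), and Htr2c, a serotonin receptor that acts on Pomc neurons, was lower at -1.15 ± 0.39 (edgeR Padj = 0.621). Both calls ended over all 10 samples, with log2 fold changes of 0.59 and -0.63. Ghr and Htr2c too were on the study's qRT-PCR list. Of the 22 tested after 4 weeks, none had P below 0.01 or below 0.05 with edgeR. Among 23 partners that signal with these receptors or end their signal, 20 were tested after 2 days and 19 after 4 weeks, with none at P below 0.01 with edgeR and 0 and 1 at P below 0.05.

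Of the peptides that the receptors read, the 3 made by ARC neurons were higher. After 2 days Agrp was at 170 ± 48.3 CPM in vehicle (SD, n = 3) and 423 ± 99.0 CPM in Cort (SD, n = 4), a log2 fold change of 1.32 ± 0.20 (edgeR Padj = 0.0103). Npy and Pomc were higher by 0.49 ± 0.15 (edgeR Padj = 0.521) and 0.56 ± 0.17 (edgeR Padj = 0.543). They were the other 2 of the 3 peptide genes with P below 0.01 among 7 tested (1.49% of all genes). Over all 10 samples the log2 fold changes were 0.81 for Agrp, 0.35 for Npy and 0.44 for Pomc, each with P above 0.01, whereas P for Lepr and Ghsr was below it. Vehicle samples C07 and C09, set aside by the study, brought the Agrp maximum in vehicle to 560 CPM without a like level of Ghsr.

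Set against Agrp in the same sample, Ghsr gave 0.158 to 0.267 counts per Agrp count in vehicle and 0.124 to 0.139 in Cort after 2 days. The ratio was thus lower in each of the 4 Cort samples than in the 3 vehicle samples, although with all 10 the ranges overlapped. After 4 weeks the kept samples ran the other way, at 0.0695 to 0.327 in vehicle and 0.376 to 0.994 in Cort. With all 10 samples these ranges too overlapped, since vehicle reached 1.07. Lepr after 2 days gave 0.0407 to 0.0721 counts per Agrp count in vehicle and 0.0392 to 0.0717 in Cort, nearly the same range. With all 10 samples the vehicle minimum was 0.0137, while the Cort minimum stayed at 0.0392. After 4 weeks the Lepr ranges of the kept samples overlapped, at 0.0420 to 0.417 in vehicle and 0.0828 to 0.222 in Cort. These ratios too carry no test.

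After 4 weeks Npy was at 445 ± 115 CPM in vehicle (SD, n = 3) and 89.8 ± 61.9 CPM in Cort (SD, n = 4), a log2 fold change of -2.31 ± 0.41 (edgeR Padj = 0.0966). Over all 10 samples it was -1.34 ± 0.54 (edgeR Padj = 0.991). Igf1, the ligand of Igf1r, was higher with a log2 fold change of 5.14 ± 1.65 (edgeR Padj = 0.918, DESeq2 Padj = 0.0488). It ranged from 0.338 to 2.69 CPM in vehicle and 0.238 to 134.5 CPM in Cort, where the groups overlapped. Agrp and Pomc differed by -0.53 ± 0.37 (edgeR Padj = 0.99) and -0.02 ± 0.32 (edgeR Padj = 0.998). The 4 week minus 2 day difference had P below 0.01 for Npy (-2.80 ± 0.47, edgeR Padj = 0.0677), Agrp (-1.85 ± 0.42, Padj = 0.703), Cck (-5.82 ± 2.01, Padj = 0.714) and, among the other receptors, Npy4r. With DESeq2 the Padj of this difference was 0.0284 for Agrp and 0.168 for Cck. Over all samples the edgeR difference was -1.70 (edgeR Padj = 0.719) for Npy and -1.03 for Agrp, where P was above 0.05. Cck was at 0 to 2 counts in the 4 kept Cort samples after 4 weeks, so that its fold depends on the fit. For Npy4r no fold is given, since its 3 kept vehicle samples after 4 weeks were all at 0 counts, and its call ended over all samples, where vehicle C05 held 57 counts.

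The coefficient of variation (CV) of a receptor between samples is given beside the CV that its counts alone would give, which covers neither differences between mice nor amplification. For Lepr after 2 days the CV was 40.9% in vehicle and 34.5% in Cort, against 17.1% and 11.1% from counting. After 4 weeks the vehicle CV reached 78.6% for Lepr, 74.1% for Ghsr and 60.6% for Npy1r, against 12%, 12.1% and 5.60%. The narrowest of these groups was Npy1r in 2 day vehicle, at 4.07% against 4.78%.

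**Figure D4:**
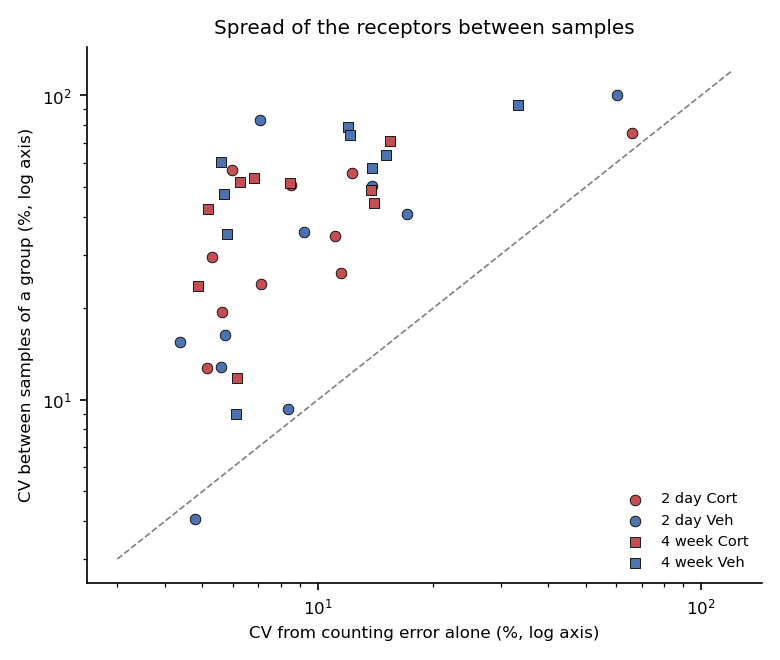
CV between samples of a group (vertical, %) against the CV that counting error alone gives (horizontal, %), both on log axes, 1 point per receptor and group, circles after 2 days and squares after 4 weeks, blue vehicle and red Cort, with equality as a dashed line. All points but that of Npy1r in 2 day vehicle lie above the line.

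Marker lists of the cell types in and beside the ARC were summed for each sample. All 9 neuron, 7 astrocyte, 8 tanycyte, 7 oligodendrocyte, 7 microglia, 7 vascular and 6 ventromedial hypothalamus (VMH) markers had counts in at least 1 sample of each dataset. The neuron sum overlapped between treatments after 2 days, at 6541 to 6957 CPM in vehicle and 6351 to 7112 CPM in Cort. The oligodendrocyte sum separated the 7 kept samples after 2 days, at 367 to 460 CPM in vehicle and 472 to 641 CPM in Cort. It overlapped over all 10 samples, where vehicle reached 735 CPM. After 4 weeks 2 sums separated the 7 kept samples, those of neurons (4206 to 4956 CPM in vehicle and 5103 to 5676 CPM in Cort) and of astrocytes (2799 to 2917 and 3093 to 4209 CPM), and both overlapped over all 10. The VMH sum overlapped between treatments, at 47.0 to 93.3 CPM in vehicle and 38.2 to 97.5 CPM in Cort after 2 days. After 4 weeks it was at 7.64 to 33.5 and 3.30 to 102.1 CPM. In 4 week Cort samples C07, C08, C09 and C10 it was 3.30, 50.7, 33.0 and 102.1 CPM. Glp1r in these samples was at 119.4, 86.2, 26.3 and 68.9 CPM. The median 4 week minus 2 day difference of the 5 VMH markers tested was 3.67 on the log2 scale, against 0.020 over all genes. Of the 5, 1 had P below 0.01 (1.35% of all genes). The part of these sums in the receptor values was not tested. Among the 7 kept samples, the summed level of 10 glucocorticoid-induced genes was 284 to 431 CPM in vehicle and 438 to 761 CPM in Cort after 2 days. All 10 had higher fitted values under Cort (52.1% of all genes did). Of these 10, 4 had P below 0.01 (1.49% of all genes). After 4 weeks the sum was 292 to 371 and 507 to 721 CPM. With all 10 samples these sums overlapped in both datasets, with vehicle reaching 552 CPM after 2 days and Cort as low as 263 CPM after 4 weeks.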

How the data were processed

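Deposited count tables hold whole read counts per Ensembl gene, which per the study's methods were made with Rsubread against GRCm38 and featureCounts; the annotation release, strand setting and treatment of multi-mapped reads are not given in the sources used here. The libraries came from amplified cDNA (Ovation RNA-seq System V2) without molecular identifiers, from RNA with RIN above 6.5, so counting limits cover counting error only. The normalised tables hold a mean signal, computed by the authors with DESeq2 size factors over 7 samples, used only to check which samples were kept: it was matched within a relative difference of 1e-4 for all 22048 genes. Their 14 per-sample columns were not used (in the 2 day table, sample names and values disagree with the counts), nor were the columns of the authors' own comparisons (fold changes, P and Padj).

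Columns were tied to groups, not to numbered samples, through the study's sample table. Within a dataset, Cort was set against vehicle over the 7 samples kept with edgeR 4.0.16 (TMM, filterByExpr, quasi-likelihood F test, Benjamini-Hochberg adjustment over all genes), and between datasets by an interaction term over 14 samples. Calls were made at P below 0.01 and at Padj below 0.1, as in the study. The SE was the fold change over the square root of F. DESeq2 1.42.0, limma voom 3.58.1 with sample quality weights, upper quartile scaling, other filters, all 10 samples and leaving out each sample were the alternatives. Scripts were tested on simulated data. Gene lengths and positions came from GENCODE vM21 (21858 of 22048 genes matched). All receptors were described with their samples, genes of the other lists when P was below 0.01, and Agrp, Npy and Pomc always. Receptors and lists were chosen with earlier results of these data known. The lists of other receptors, partners and peptides held 42, 23 and 14 genes; Galr3 and Grk2 were not analysed here. Whether samples of a group differ by more than technical spread rests on each being a separate mouse, and p-values measure the spread between them.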

Additional observations from a re-analysis of the deposited data

Results flagged for a closer look

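Of 40 sets of 5 samples (10 receptors in 4 groups), 5 held a sample that stood apart from the others by more than Dixon's 95% limit of 0.71 of the range, where chance flags about 1 in 20. In 4 week vehicle, Glp1r was at 37.4 CPM in sample C03, above the next sample at 15.2 CPM. Mc3r in 2 day vehicle was at 39.9 CPM in C04, with the next at 23.9 CPM. Npy2r in 2 day Cort was at 165.9 CPM in C10, with the next at 77.8 CPM, and this sample set the sign of its 2 day fold change. Mc4r was at 8.25 CPM in 4 week Cort sample C09 (16 counts) and at 6.43 CPM in 4 week vehicle sample C01 (7 counts), both close to the counting limit. C01 of the 4 week dataset was among the samples the study set aside.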

How the results depend on the processing

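After 2 days the number of receptors with P below 0.01 was 0 of 10, beside 183 of 12309 genes. It was 3 with DESeq2 (Lepr, Ghsr, Igf1r), beside 304 of 15995 genes. Over all 10 samples it was 2 (Lepr and Ghsr), beside 133 of 11983 genes. With voom over all 10 it was 2 (Lepr and Ghsr), beside 144 of 11983 genes. Where 10 counts were asked of every sample it was 1 (Lepr), beside 174 of 9957 genes. After 4 weeks it was 0 (116 of 11211 genes) and became 1 (Glp1r) with DESeq2 (326 of 14935 genes) and over all 10 samples (101 of 10398 genes). With voom over all 10, P for Glp1r was above 0.01, beside 107 of 10398 genes below it. The 4 week minus 2 day count was 0, beside 173 of 12777 genes. It became 2 with DESeq2 (Lepr, Glp1r), beside 401 of 16306 genes. Over all 10 samples of each dataset it was 1 (Glp1r), beside 170 of 12512 genes. With no filter it was 1 (Glp1r), beside 253 of 16627 genes, and with upper quartile scaling 1 (Lepr), beside 166 of 12777. Leaving out single samples gave 0 to 2 receptors after 2 days, 0 to 1 after 4 weeks and 0 to 2 for the difference. No receptor reached Padj below 0.1 under any of these. After 2 days Lepr, Ghsr, Igf1r and Npy5r kept their direction under every alternative run, as did Mc4r where it was tested. After 4 weeks Glp1r, Ghsr, Igf1r, Npy5r, Lepr and Npy1r did so. A kept direction was thus not particular to the receptors with P below 0.01. The cause of the moved counts was not tested, though P for Lepr lay close to the threshold.

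With all 10 samples the sign turned for Npy1r after 2 days, to 0.091, and for the 4 week minus 2 day values of Igf1r and Mc3r, to 0.33 and 0.0081. Leaving out 1 of the 7 samples kept moved log2 fold changes across 0 for Glp1r (-0.93 to 0.39, the highest without vehicle C05), Npy1r (-0.17 to 0.047) and Npy2r (-0.12 to 0.55) after 2 days and for Insr (-0.28 to 0.39) and Npy2r (-0.65 to 0.17) after 4 weeks. It left Insr (-0.35 to -0.082) and Mc3r (-0.56 to -0.054) below 0 after 2 days and Mc3r (-0.90 to -0.17) after 4 weeks. Leaving out 1 of all 10 turned the sign from that of the 7 samples for Insr (-0.13 to 0.11), Mc3r (-0.25 to 0.085), Glp1r (-0.52 to 0.37), Npy1r (-0.057 to 0.18) and Npy2r (-0.025 to 0.53) after 2 days and for Insr (-0.22 to 0.23) and Mc3r (-0.52 to 0.37) after 4 weeks, where Npy2r stayed below 0 (-1.26 to -0.54). Leaving out 1 of the 14 turned the difference for Ghsr (-0.53 to 0.61), Insr (-0.075 to 0.59) and Mc3r (-0.51 to 0.21). In the order per kilobase, 5 of 10 receptors kept their place with the longest transcript and 6 with all 10 samples after 2 days, and 8 and 4 after 4 weeks.

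No paired analysis was possible because the count columns carry no replicate number. The study also describes no pairs of Cort and vehicle mice, which were housed singly and divided into groups of equivalent baseline weight. The 4 week libraries reach lower depth, and Mc4r is too rare in either dataset for a comparison.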
